A study of Mus musculus with 4 samples.

Results

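The clathrin coat genes examined here encode the clathrin chains, the adaptors that load cargo into clathrin-coated pits, and the proteins that bend, cut and uncoat the resulting vesicles. Probe sets annotated with exactly 1 gene symbol were used, and where a gene had several, the one with the highest mean over the 4 arrays was taken. This gave 45 of the 46 listed genes, among 22180 genes in all. No single-symbol probe set was listed for Picalm, a clathrin assembly adaptor, and its expression was not analysed here.

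Glomerular RNA was measured on 4 arrays. The 2 Gak-KO arrays came from mice with floxed Gak (Gak fl/fl) and a Pod-Cre-Rosa-Dtr fl transgene combination, in which the podocin promoter drives Cre in podocytes, so that the other glomerular cells keep Gak. The 2 control arrays came from littermates, which the study describes as Gak fl/fl. All mice were C57BL/6 and 3 weeks old, and each array held RNA pooled from 3 mice, so the arrays show no spread between single mice. Glomeruli had been captured with Dynabeads and a Percoll gradient. Arrays with the same number (pair 1 and pair 2) were set against each other, because the study lists its results by batch. The labels call both arrays 1 male and both arrays 2 female, so number and labelled sex cannot be told apart. Xist, which is transcribed from the inactive X chromosome, read 9.61 and 9.21 on Gak-KO arrays 1 and 2 and 9.69 and 8.55 on control arrays 1 and 2, which goes against the label of arrays 1 as male. Uty, a gene of the Y chromosome, read 5.59 and 5.57 on the Gak-KO arrays and 4.65 and 6.00 on the control arrays. Gak-KO minus control was thus 0.94 and -0.43 for Uty in pairs 1 and 2, and -0.09 and 0.66 for Xist. Whether the genotypes differed in sex make-up within a pair was not tested. All values are log2 signals, and a change is Gak-KO minus control. Because the RNA came from whole glomeruli, fewer cells of a type and less RNA per cell cannot be told apart.

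Clathrin forms a lattice of heavy and light chains on a membrane, which adaptors tie to cargo receptors and to phosphoinositide lipids. Dynamin cuts the neck of the coated pit, synaptojanin removes the lipid signal, and Hsc70 with auxilin or GAK (the J-domain kinase that Gak encodes) strips the coat so that its parts can be used again. Podocytes, whose foot processes carry the slit diaphragm, use this machinery to take up and recycle their surface proteins.

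Expression of the clathrin genes differed little between Gak-KO and control glomeruli. None of the 45 genes had a Z-ratio past the 95% limits of a normal distribution in both pairs and in the same direction. The limit is that of the study's methods, and the need for both pairs was set here because the study lists a Z-ratio for each batch. Of all 22180 genes, 0.744% passed this Z-ratio criterion (0.509% higher and 0.234% lower in Gak-KO). With so small a share, a count of 0 among 45 genes does not set them apart from all genes. At the looser mark of a Z-ratio past that limit in at least 1 pair, none of the 45 passed, against 10.2% of all genes (5.27% in pair 1 and 5.96% in pair 2) and 11.7% of the 15526 genes above the low-signal limit, where 44 of the 45 lie. None reached a limma unadjusted p under 0.05, against 5.43% of all genes and 6.69% of those above the low-signal limit, and no gene of the array reached an adjusted p under 0.05. The smallest unadjusted p among the 45 was 0.0579. The methods' t-test put 1 of the 45 (Ap3d1) under 0.05, against 2% of all genes. With 2 arrays a group, an exact permutation test over arrays could not go below p = 0.333.

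The changes of the 45 genes were also small in size. Their mean change over both pairs ran from -0.28 (Gga2) to 0.20 (Epn3), with 23 genes above and 22 below 0. Leaving out 1 array, and with it the pairing, widened this range, at most to -0.70 (Ap2a2, without Gak-KO 1) and 0.63 (Sh3gl2, without control 1). Such unpaired values mix genotype with array number. In absolute size the mean change over both pairs had a median of 0.0785, against 0.111 over all genes, and 26 of the 45 genes had a mean change under 0.1. The median change was 0.0369 in pair 1 and 0 in pair 2, against 0 and 0 over all genes. The widest single change was that of Ap2a2 in pair 2, at -0.43. No clathrin gene moved beyond 0.5 in either pair, against 12.6% of all genes in at least 1 pair and 14% of those above the low-signal limit. Such a change still lies inside the limits of many of these estimates: the 95% intervals of 32 genes lay within 0.5 on either side of 0 and those of the other 13 went beyond it, with bounds from -0.67 to 0.65 over all 45.

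**Figure D1:**
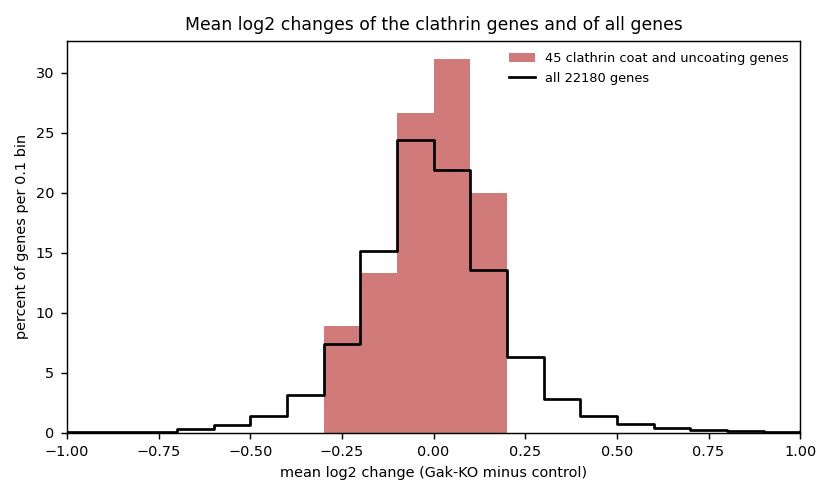
Mean log2 change (Gak-KO minus control, horizontal axis) against the percent of genes in each bin of 0.1 (vertical axis), with bars for the 45 clathrin coat and uncoating genes and a line for all 22180 genes. The bars run from -0.28 to 0.20, and the line has wider tails on both sides.

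In 24 of the 45 genes the change had the same sign in both pairs (46.6% of all genes), 13 being higher in both (22.3% of all genes) and 11 lower in both (24.3%). In 17 the signs were opposite (39.7%), and in 4 genes (Ap3b1, Sh3gl3, Gapvd1 and Tbc1d8b) the signals of Gak-KO 2 and control 2 were exactly equal (10.4%). No clathrin gene was exactly equal in pair 1 (3.97% of all genes). Both Gak-KO arrays lay above both control arrays in 5 genes (8.8% of all genes) and below them in 3 genes (8.22%). The 5 were Ap3d1, Gga3, Epn2, Synj1 and Sh3gl1, and the 3 were Ap1s1, Epn1 and Eps15.

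**Figure D2:**
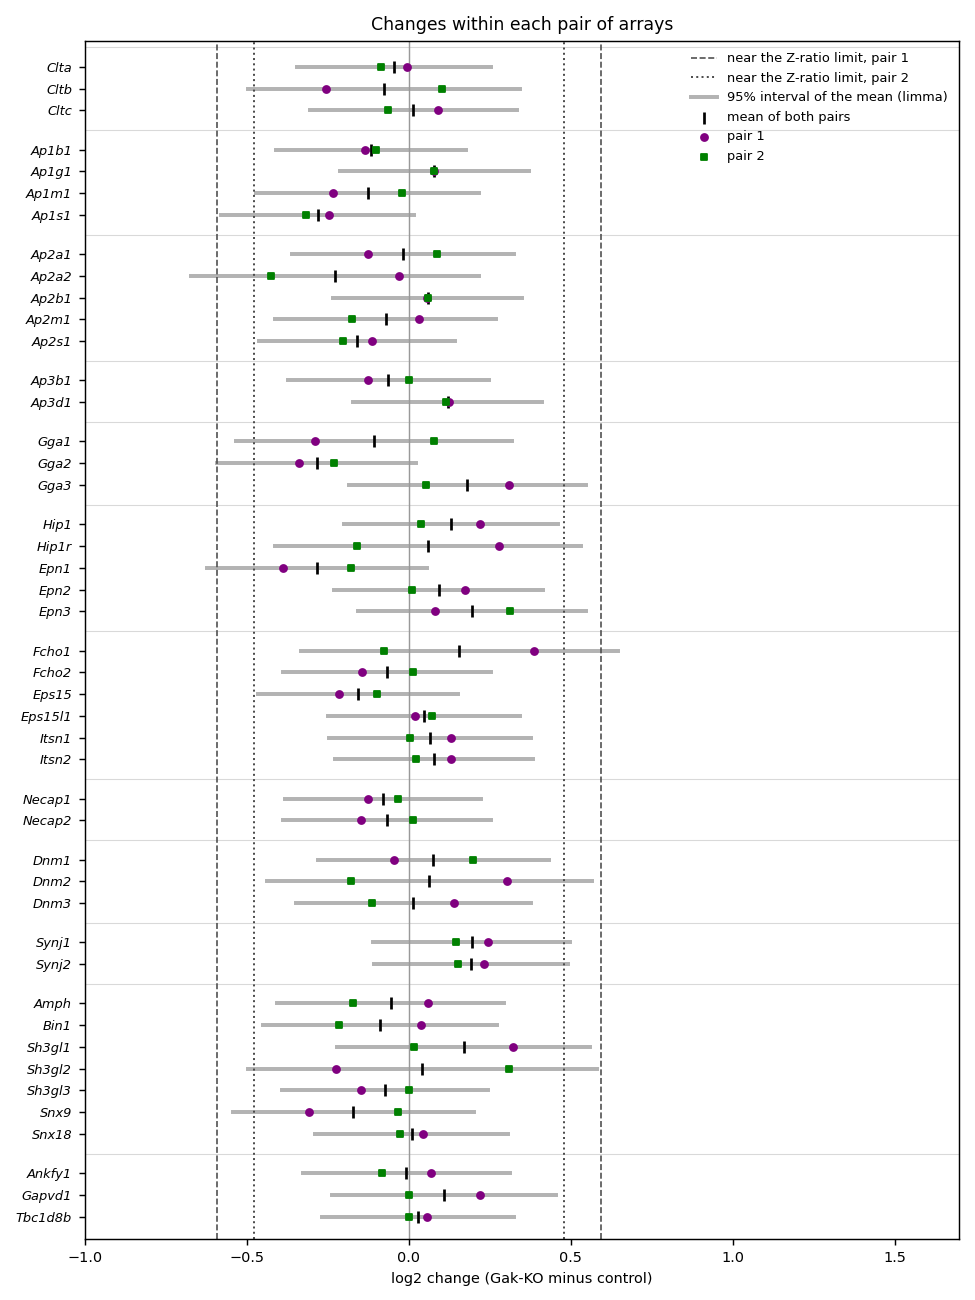
Log2 change (Gak-KO minus control) within pair 1 (circles) and pair 2 (squares) for each of 45 genes, grouped by role, with the mean as a tick and its 95% interval from limma as a grey bar. The dashed and dotted lines mark the change near the Z-ratio limit in pair 1 (0.59) and pair 2 (0.48), and no point reaches the line of its pair.

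The 3 genes with the lowest mean change were the trans-Golgi adaptor gene Gga2, the epsin gene Epn1 and the AP-1 sigma subunit gene Ap1s1, none of them past a test. The 250 bases before their start sites are shown to give the sequence context of these genes, 5′ to 3′ on the gene's strand (RefSeq, GRCm38.p6), with capitals for the GC box GGGCGG, the CCAAT box CCAAT and the E-box CACGTG, read on both strands. The windows are chr7:122021199-122021448 (minus strand) for Gga2, chr7:5079985-5080234 (plus strand) for Epn1, which has a further overlapping window, and chr5:137046109-137046358 (minus strand) for Ap1s1.
Gga2: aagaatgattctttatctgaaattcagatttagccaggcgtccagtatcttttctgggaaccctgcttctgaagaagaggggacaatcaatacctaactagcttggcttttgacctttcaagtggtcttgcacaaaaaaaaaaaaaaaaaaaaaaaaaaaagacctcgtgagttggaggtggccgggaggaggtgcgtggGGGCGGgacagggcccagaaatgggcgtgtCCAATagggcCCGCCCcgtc
Epn1: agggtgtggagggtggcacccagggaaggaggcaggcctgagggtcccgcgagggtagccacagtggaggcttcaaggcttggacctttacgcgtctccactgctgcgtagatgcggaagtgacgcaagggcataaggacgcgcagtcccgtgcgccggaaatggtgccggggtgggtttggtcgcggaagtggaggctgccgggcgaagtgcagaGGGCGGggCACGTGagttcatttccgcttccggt
Ap1s1: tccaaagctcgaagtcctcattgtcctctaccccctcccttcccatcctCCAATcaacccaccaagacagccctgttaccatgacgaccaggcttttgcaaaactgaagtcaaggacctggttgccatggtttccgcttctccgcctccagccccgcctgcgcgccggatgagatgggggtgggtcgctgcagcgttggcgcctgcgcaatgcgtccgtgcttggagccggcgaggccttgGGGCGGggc
Each of the 3 windows held at least 1 GC box, Gga2 and Ap1s1 held a CCAAT box, and Epn1 held an E-box. RefSeq gave 47 such windows for 41 of the 46 listed genes, Picalm included. Of these genes 6 had more than 1 window, some of them overlapping, so the shares are per window and not per gene. GGGCGG was present in 59.6% of the 47 windows, against 32.7% of all 32851 windows. CCAAT was present in 25.5% and 33.8%, CACGTG in 12.8% and 6.02%, and the TATA box TATAAA in 4.26% and 12.4%. The median number of CpG dinucleotides was 17 in the windows of the clathrin genes, against 6 over all windows. The motifs are given as descriptions of these letters.

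Among the clathrin chains themselves, the transcripts were at near-equal levels in both genotypes. Cltc, the heavy chain, read 10.39 and 9.56 in Gak-KO glomeruli, against 10.30 and 9.62 in controls. Clta, a light chain, read 7.88 and 7.51 in Gak-KO, against 7.89 and 7.59 in controls. In both genes the 2 genotypes overlapped, and the arrays numbered 2 were the lower ones in each genotype. Their mean changes were 0.01 ± 0.10 and -0.05 ± 0.10 (SE, n = 2 pairs). Here and below, the SE is limma's moderated one, which draws on the spread of all genes as well as on the 2 pairs. The second light chain, Cltb, read 8.60 and 8.36 in Gak-KO, against 8.85 and 8.25 in controls, so that its changes had opposite signs (-0.26 and 0.10).

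AP-1, which sorts cargo at the trans-Golgi network and endosomes, included the lowest subunit change. Ap1s1, its sigma subunit, read 6.76 and 6.46 in Gak-KO, against 7.00 and 6.78 in controls. Both Gak-KO arrays were below both control arrays, with a mean change of -0.28 ± 0.10 (SE, n = 2 pairs, adjusted p = 0.833 by limma). Ap1b1 (beta) and Ap1m1 (mu) were lower in both pairs as well, by means of -0.12 and -0.13, while Ap1g1 (gamma) was 0.08 higher in each pair. The 4 subunits thus did not share a direction, and none passed a test.

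AP-2 is the adaptor of the plasma membrane, and 3 of its 5 subunits had a mean change of 0.07 or less in size. Ap2a2, an alpha subunit, read 9.52 and 8.58 in Gak-KO, against 9.55 and 9.01 in controls. Its change came from pair 2 (-0.43, against -0.03 in pair 1), and the genotypes overlapped. Ap2s1, the sigma subunit, was lower in both pairs (-0.11 and -0.20), with 8.23 and 7.89 in Gak-KO, against 8.34 and 8.09 in controls. Ap2b1 (beta) was higher by 0.06 in each pair, and Ap2a1 (alpha) and Ap2m1 (mu) had opposite signs in the pairs.

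AP-3 carries cargo from endosomes towards lysosomes. Ap3d1, its delta subunit, read 9.58 and 9.55 in Gak-KO, against 9.45 and 9.44 in controls. All 4 arrays lay close together by genotype, with changes of 0.13 and 0.12, the most even of the non-overlapping genes. The mean was 0.12 ± 0.10 (moderated SE, n = 2 pairs, adjusted p = 0.833 by limma). That SE is wider than the 2 changes alone would give, because limma moderates it with the spread of all genes. Ap3b1, the beta subunit, was -0.13 in pair 1 and equal in pair 2.

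The GGA adaptors sort mannose 6-phosphate receptors at the trans-Golgi network, and the 3 genes moved in different directions. Gga2 read 7.25 and 6.77 in Gak-KO, against 7.59 and 7.00 in controls. It was lower in both pairs (-0.34 and -0.23), though Gak-KO 1 lay above control 2, and the mean was -0.28 ± 0.10 (SE, n = 2 pairs, adjusted p = 0.833 by limma). A second, dimmer probe set for Gga2 gave exactly equal signals within each pair (5.49 in pair 1 and 4.65 in pair 2), so it did not repeat the lower signals of the first. Such exact ties occurred only between same-numbered arrays, and their origin was not tested. Gga3 read 5.60 and 5.58 in Gak-KO, against 5.29 and 5.53 in controls, with both Gak-KO arrays higher. Gga1 read 7.18 and 7.40 in Gak-KO, against 7.47 and 7.32 in controls, with opposite signs in the pairs.

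The ANTH and ENTH adaptors bind phosphoinositides and link clathrin to membrane and actin. Epn1 read 8.02 and 8.15 in Gak-KO, against 8.41 and 8.33 in controls. Both Gak-KO arrays were below both control arrays, and the mean was -0.28 ± 0.11 (SE, n = 2 pairs, adjusted p = 0.833 by limma). Its paralogs Epn2 and Epn3 were on the other side of 0. Epn3 read 8.11 and 8.91 in Gak-KO, against 8.03 and 8.60 in controls, a mean change of 0.20 ± 0.12, and Epn2 had both Gak-KO arrays higher by a mean of 0.09. Hip1, which joins clathrin to actin, was higher by 0.22 and 0.04 in the pairs, and its paralog Hip1r had 0.28 in pair 1 and -0.16 in pair 2.

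The scaffolds that start a pit (the FCHO proteins, the EPS15 proteins and the intersectins) had mean changes from -0.16 to 0.16. Eps15 read 8.76 and 8.83 in Gak-KO, against 8.98 and 8.92 in controls, lower on both Gak-KO arrays. Fcho1 read 4.19 and 4.51 in Gak-KO, against 3.81 and 4.59 in controls, which was 0.39 in pair 1 and -0.07 in pair 2. Itsn1 and Itsn2, the intersectins that connect pits to actin regulators, had 0.13 each in pair 1 and 0.00 and 0.02 in pair 2. The NECAP genes, whose proteins bind AP-2, had means of -0.08 (Necap1) and -0.07 (Necap2), and a second probe set for Necap1 gave 0.12.

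The dynamins, which cut the neck of the pit, had mean changes of 0.08 (Dnm1), 0.06 (Dnm2) and 0.01 (Dnm3), and in each gene the pairs had opposite signs. Dnm2, the form present in most tissues, read 9.04 and 9.15 in Gak-KO, against 8.74 and 9.33 in controls. It was 0.30 in pair 1 and -0.18 in pair 2, so both Gak-KO arrays lay between the control arrays. Dnm1, known from neurons, read 5.24 and 5.60 in Gak-KO, against 5.29 and 5.40 in controls. Dnm3 read 6.18 and 6.94 in Gak-KO, against 6.04 and 7.05 in controls. For Dnm1 and Dnm3 the genotypes overlapped. A second, dimmer probe set for Dnm3 had changes of 0.02 and 0.20.

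The synaptojanins, phosphoinositide phosphatases that act during uncoating, were the one role in which every gene was higher in both pairs by more than 0.1. Synj1 read 6.74 and 6.88 in Gak-KO, against 6.50 and 6.73 in controls. Synj2 read 4.71 and 5.27 in Gak-KO, against 4.48 and 5.12 in controls. The means were 0.20 ± 0.10 and 0.19 ± 0.10 (SE, n = 2 pairs, adjusted p = 0.833 by limma for each), and neither passed a test.

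The BAR domain genes, whose proteins sense or bend curved membrane, ranged from -0.17 (Snx9) to 0.17 (Sh3gl1) in mean change. Sh3gl1, an endophilin, read 7.21 and 7.01 in Gak-KO, against 6.88 and 7.00 in controls. Snx9 read 8.82 and 8.65 in Gak-KO, against 9.12 and 8.68 in controls. Sh3gl2 read 9.56 and 8.92 in Gak-KO, against 9.79 and 8.61 in controls. Both Gak-KO arrays of Sh3gl2 lay between its control arrays, with changes of -0.22 and 0.31. Its other probe sets, both dimmer, had changes of 0.01 and -0.01 in the first and of -0.24 and 0.09 in the second. Amph, Bin1, Sh3gl3 and Snx18 had mean changes from -0.09 to 0.01, and Sh3gl3 lay below the low-signal limit of 3.63.

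Ankfy1, Gapvd1 and Tbc1d8b encode Rab regulators that carry mutations in inherited nephrotic syndrome. Gapvd1, a Rab5 exchange factor, read 7.67 and 7.62 in Gak-KO, against 7.45 and 7.62 in controls. Ankfy1, a Rab5 effector, and Tbc1d8b, a Rab GTPase-activating protein, had mean changes of -0.01 and 0.03. None of the 3 passed a test.

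**Figure D3:**
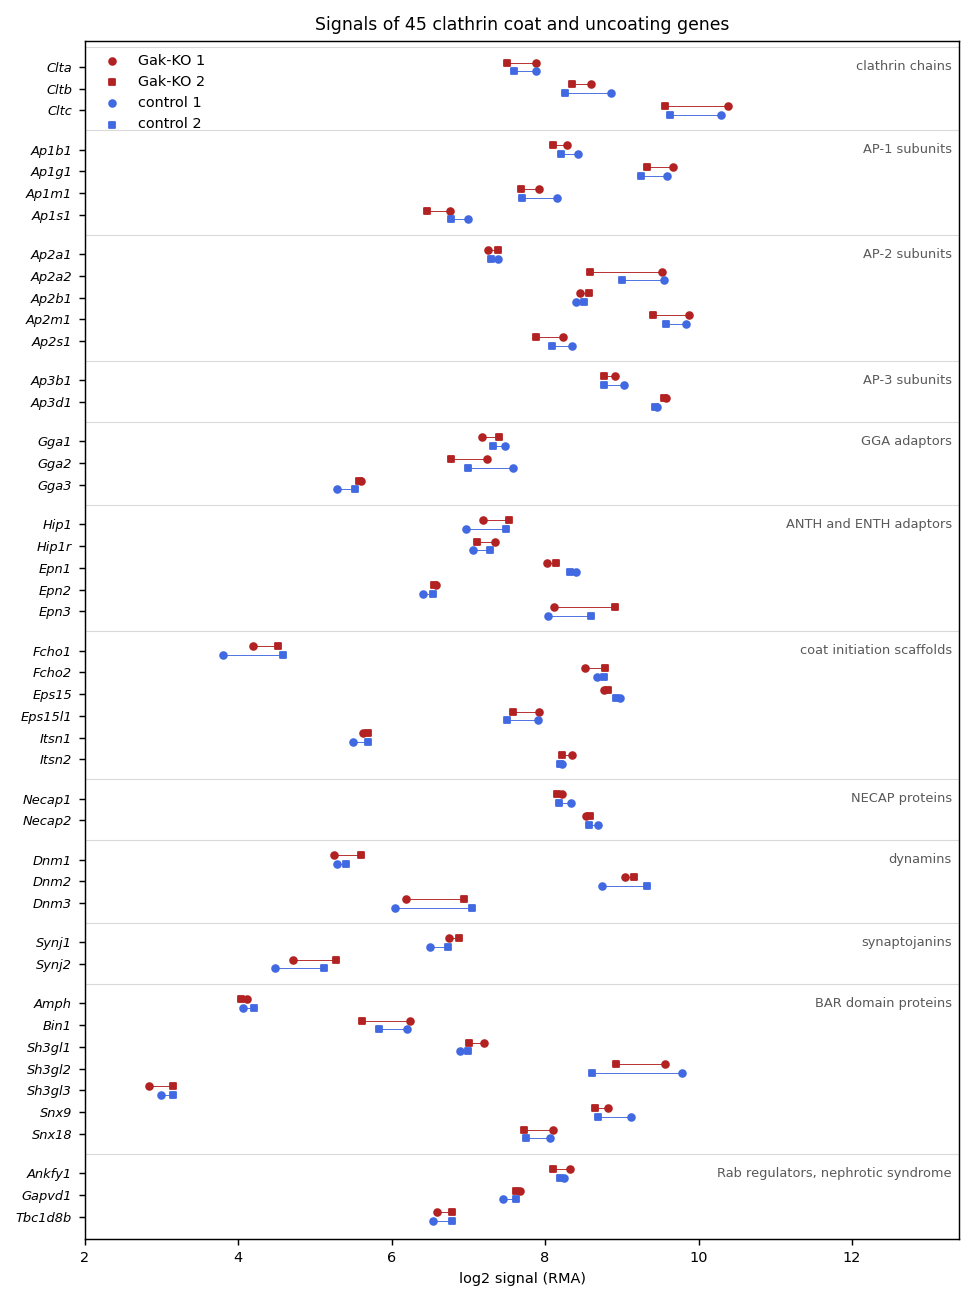
Log2 signal (horizontal axis) of 45 genes grouped by role, with Gak-KO arrays in red above control arrays in blue, circles for arrays 1 and squares for arrays 2. Lines join the arrays of one genotype, and for Cltc, Dnm3, Epn3 and Sh3gl2 the distance between numbers exceeds that between genotypes (levels are not comparable between genes).

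The array numbers were also compared, a comparison chosen after the values were seen. Whether the pairs were normalized together is not stated in the sources used here. These differences may therefore include a difference in processing, which was not tested. In 31 of the 45 genes the mean difference between arrays 2 and arrays 1 was larger than that between Gak-KO and control, against 73.9% of all genes. With both differences set against their median over all genes, this held for 37 of the 45, against 72.2% of all genes. The median difference over all genes was -0.10 in each genotype, and 34 of the 45 genes had the same sign in both genotypes (75.7% of all genes), 13 being higher and 21 lower on arrays 2. Set against that median, 21 were higher and 17 lower, so the balance turns with the scaling. The difference (arrays 2 minus arrays 1) of Cltc was -0.83 in Gak-KO and -0.68 in controls, and that of Sh3gl2 was -0.64 in Gak-KO and -1.17 in controls. For Dnm3 it was 0.76 in Gak-KO and 1.01 in controls, and for Epn3 0.79 in Gak-KO and 0.56 in controls. Other probe sets did not all bear these out. For Dnm3 the second gave 0.20 in Gak-KO and 0.01 in controls. For Sh3gl2 they gave 0.08 in Gak-KO and 0.10 in controls, and -0.53 in Gak-KO and -0.86 in controls. No gene of the array passed an adjusted p under 0.05 for this difference. Averaged over the genotypes, all 7 podocyte markers measured were higher on arrays 2 (median 1.23) and all 7 proximal tubule markers were lower (median -1.10). All 7 endothelial markers were higher as well (median 0.41). The 6 thick limb and distal nephron markers ran from -0.31 to 0.69 (median 0.32). Medians of the remaining cell type lists ran from -0.22 (parietal epithelial) to 0.42 (macrophage). Mean signals over the podocyte list were 7.43 and 8.77 in Gak-KO, against 7.64 and 8.55 in controls. Over the proximal tubule list they were 11.17 and 10.07 in Gak-KO, against 11.52 and 10.71 in controls. All 7 proximal tubule markers had a mean change below 0. The part of these cell types in the clathrin values was not tested.

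**Figure D4:**
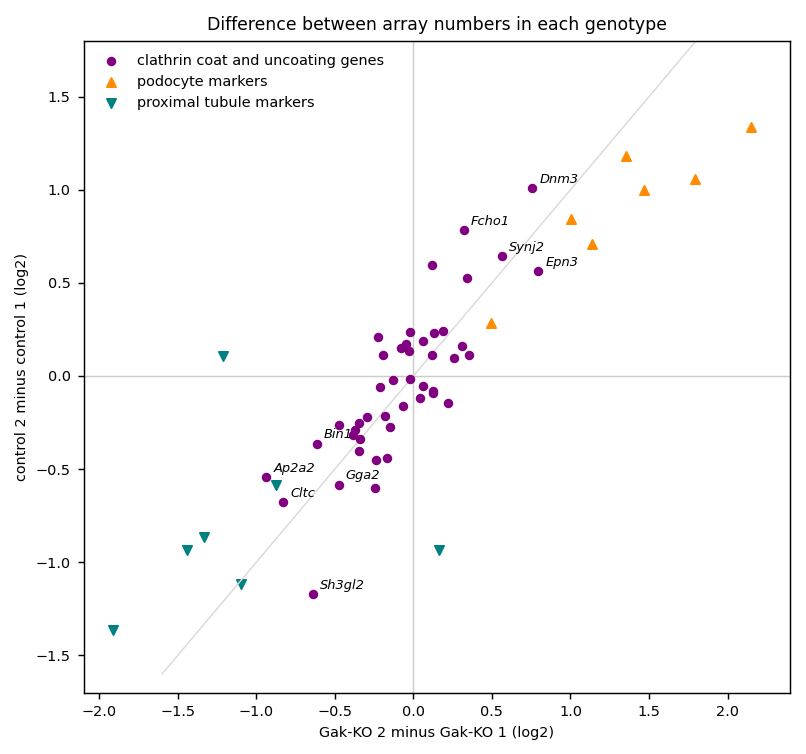
Array 2 minus array 1 in Gak-KO (horizontal axis) and control (vertical axis), in log2 units, for the clathrin genes (circles), podocyte markers (upward triangles) and proximal tubule markers (downward triangles), with a grey diagonal where both genotypes differ equally. The podocyte markers lie at the upper right, and among the clathrin genes Dnm3 (0.76 and 1.01) and Cltc (-0.83 and -0.68) lie far from 0.

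Of the other genes of the pathway, 104 of 111 listed were measured. None of them passed the Z-ratio criterion in either direction (0.744% of all genes), and 8 were past the limit in at least 1 pair (10.2% of all genes). By limma, 7 had an unadjusted p under 0.05 (5 higher and 2 lower in Gak-KO, against 2.89% and 2.54% of all genes). Gak, the deleted gene, read 8.64 and 8.39 in Gak-KO, against 8.25 and 8.35 in controls, and so was not lower in Gak-KO by this probe set. The position of that probe set relative to the floxed part is not given in the sources used here, and the deletion is confined to podocytes. Of the related kinases and uncoating chaperones listed with it, Dnajc6 (auxilin) read 6.37 and 6.17 in Gak-KO, against 6.73 and 6.43 in controls. The mean change of Dnajc6 was -0.31 ± 0.10 (SE, n = 2 pairs, adjusted p = 0.833 by limma). Hspa8, which encodes Hsc70, read 12.00 and 11.38 in Gak-KO, against 11.95 and 11.35 in controls, and the kinase gene Bmp2k was 0.18 higher on average.

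From each of the other lists, up to 3 genes with the largest mean change among those of the same sign in both pairs are given here, none of them past the criterion. Cd2ap, a slit diaphragm adaptor, read 10.26 and 10.60 in Gak-KO, against 9.88 and 10.25 in controls. Myo1e, an actin motor of podocytes, read 9.11 and 9.82 in Gak-KO, against 8.71 and 9.31 in controls. Their mean changes were 0.37 ± 0.10 and 0.45 ± 0.10 (SE, n = 2 pairs, adjusted p = 0.833 by limma for each). Tnk2, a clathrin-binding kinase (0.35), the receptor Lrp1 (0.37) and the Rab5 exchange factor Rin1 (0.33) were higher, and Amn, the partner of cubilin in tubules (-0.49), was lower. Tfrc, the transferrin receptor, read 6.98 and 8.25 in Gak-KO, against 7.91 and 8.37 in controls, with most of its mean of -0.53 in pair 1. Among the caveolar genes, Cavin3 had a mean of 0.49 and Cavin1 0.28. The remaining genes named by the rule had mean changes of -0.24 (Ap5z1), 0.22 (Ap4e1), 0.21 (Ap3m2), -0.23 (Pacsin3), 0.12 (Pip5k1c), 0.12 (Pik3c2b), -0.11 (Pi4k2a), 0.22 (Fnbp1), 0.18 (Arpc2), -0.16 (Rab5c), 0.15 (Eea1) and -0.20 (Cavin4).

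**Figure D5:**
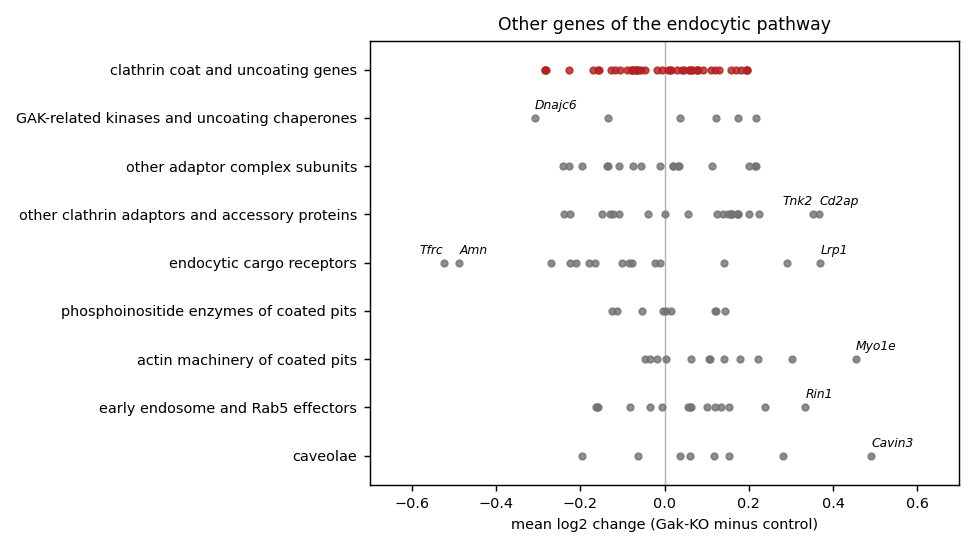
Mean log2 change (Gak-KO minus control, horizontal axis) of the clathrin coat genes (top row, red) and of the genes of 8 related lists (grey), 1 point a gene. Clathrin coat genes lie between -0.28 and 0.20, and named points beyond 0.3 belong to other lists, such as Myo1e (0.45) and Amn (-0.49).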

How the data were processed

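The deposited values are log2 signals that the authors made by RMA (background correction, quantile normalization and probe summary), and the submitters' notes also name limma. Versions are not given in the sources used here. The labels and methods name an older Affymetrix mouse genome array, while the probe set numbers match the annotation of a whole-transcript mouse gene array. Of 41345 probe sets, 23521 had 1 gene symbol, 1820 several and 16004 none, and 1 probe set was kept for each of 22180 genes. The number of arrays, 4, limits the precision.

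Z scores were taken over all genes of an array, and the Z-ratio was the within-pair difference divided by the SD of all differences, with the methods' limit (the 95% limits of a normal distribution). limma 3.58.1 in R 4.3.3 was fitted with the pair as a block, with Benjamini-Hochberg adjustment over all genes (1 residual and 2.24 prior degrees of freedom). The pairing comes from the batches in the study's listing, and the correlation of same-numbered deviations was 0.694. Exactly equal values occurred only between same-numbered arrays (1421 probe sets in pair 1 and 3735 in pair 2). Mean signals over all probe sets were 4.87 on both arrays 1, and 4.75 (Gak-KO) and 4.73 (control) on arrays 2. Whether the pairs were normalized together or apart is not stated in the sources used here. The labels do not give separate litters. With the pair as a block, the limma p-values rest on how far the within-pair changes of the pools differ, moderated by the spread of all genes. They hold no spread between single mice. Low signal was a mean below the 30th percentile (3.63). In simulated data with an even spread, the Z-ratio called 56.7% of changes of 0.5 and 100% of changes of 1, and 28.4% and 98.5% with a wide spread, over 22180 genes in the Gak-KO minus control comparison. At an adjusted p under 0.05, limma called 98.5% of changes of 0.5 with the even spread and 1.49% with the wide one. For changes of 0.5 and 1, its 95% intervals held the true change in 98.5% and 97% of cases with the even spread. With the wide spread they did so in 92.5% and 89.6%. The noise of the simulation was set and not fitted to these arrays, and the even spread gave every gene the same noise. On the arrays the smallest adjusted p over all genes was 0.833 by limma, so these rates may not hold for them.

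The clathrin genes and all lists were chosen with earlier results of these data known. Named were every clathrin gene, Gak and, from each pathway list, genes past the criterion and up to 3 with the largest mean change of the same sign in both pairs. Hspa8 was named outside that rule, after its values were seen, and Xist and Uty were named beside the sex labels. Alternatives varied pairing, normalization, probe set choice, filters, limits, the test and the arrays used. Figures were drawn with matplotlib 3.10.9.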

Additional observations from a re-analysis of the deposited data

Results flagged for a closer look

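Hip1r, Dnm2 and Sh3gl2 had changes (Gak-KO minus control, log2) of opposite sign in the pairs, each beyond the median absolute change of all genes (0.159 in pair 1 and 0.117 in pair 2). Hip1r was 0.279 in pair 1 and -0.158 in pair 2. Dnm2 was 0.304 and -0.177. Sh3gl2 was -0.225 and 0.309. The opposite signs of Sh3gl2 were near 0 on a dimmer probe set (0.01 and -0.01) and present on the dimmest (-0.24 and 0.09). The difference between the pairs was not tested, since each pair holds 1 array of each genotype, and array number and labelled sex cannot be told apart. Opposite signs of any size were found in 17 of the 45 clathrin genes and in 39.7% of all genes. The share of all genes that meet the stricter rule used for the flag was not computed.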

How the results depend on the processing

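None of the 45 clathrin genes passed the Z-ratio criterion without the block, with quantile normalization, centring, averaged probe sets, Z scores over all probe sets, the low-signal filter, a robust scale or a stricter limit, or with either pair left out. It was not run with single arrays left out. None had an unadjusted p under 0.05 in the limma alternatives, single arrays left out included. Without the replicate block, where a single Z-ratio per gene decides, 0 clathrin genes passed the limit and 0 had an unadjusted p under 0.05 by limma. In all, 1195 genes passed that limit, against 165 with the block, where both pairs had to pass in the same direction. The unpaired t-test put 1 clathrin gene (Ap3d1) under 0.05, and none after Benjamini-Hochberg. Over all genes the criterion passed 41 with Z scores over all probe sets, 394 with a robust scale, 59 with a stricter limit of the Z-ratio, and from 1169 to 1323 when either pair was left out, where 1 pair alone decides. The median change of the clathrin genes was -0.0324 in pair 2 after quantile normalization and 0.00307 in pair 1 with each array centred on its median. The mean change turned sign in 4 genes with quantile normalization, in 3 with centring, in 2 with probe sets averaged, in 15 and 6 genes without pair 1 and pair 2, and in 7 to 21 genes when a single array was left out. Leaving out a single array, without the block, moved 22 to 26 genes past the spread between their pairs and widened the range of mean changes, to -0.70 (Ap2a2) and 0.59 (Epn3) without Gak-KO 1, to -0.36 (Dnm3) and 0.43 (Cltc) without Gak-KO 2, to -0.49 (Dnm3) and 0.63 (Sh3gl2) without control 1, and to -0.58 (Gga2) and 0.55 (Fcho1) without control 2. With probe sets averaged, Gga2 was -0.14 and Necap1 0.02. With 2 pairs, 95% intervals reached 0.29 to 0.54 to either side of the mean, so smaller changes could not be resolved.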
